A study of Mus musculus with 473 samples.

Results

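The transcripts of 9 neuropeptide genes, Npy, Sst, Pomc, Agrp, Avp, Oxt, Crh, Trh and Cartpt, were followed through single cells sorted from the brains of Th:EGFP mice. The genes were taken by name, as the peptides best known from hypothalamic neurons and, for some, from neurons of the olfactory bulb, and their 9 rows were read from a table of 28952 features. The level was FPKM (fragments per kilobase of transcript and per unit of mapped fragments), which is scaled by transcript length, so that levels can be set beside each other between genes. A cell was counted as carrying a transcript at FPKM of 1 or more, and as high at 100 or more.

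Neuropeptides are cut from larger precursor proteins, packed into dense-core granules and released beside a fast transmitter. In the hypothalamus, Npy and Agrp are known from arcuate neurons that promote feeding, and Pomc and Cartpt from arcuate neurons that restrain it. Trh, Crh and Sst encode hormones that are released into the pituitary portal blood to drive or hold back anterior pituitary hormones, and Avp and Oxt encode the hormones of the posterior pituitary. Several of them, among them Npy, Sst, Crh and Trh, are also made by local neurons outside the hypothalamus.

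The cells came from a transgenic line in which tyrosine hydroxylase (Th) regulatory sequence in a bacterial artificial chromosome drives a green fluorescent reporter (eGFP). The line is on Swiss Webster stock, and hemizygous males were mated with wild-type females. All groups carried this transgene, and no treatment was compared. Tissue of 4 embryos at embryonic day 15.5 (E15.5) was pooled for forebrain (FB, the dissected hypothalamus) and for midbrain (MB). Tissue of 5 pups at postnatal day 7 (P7) was pooled for forebrain, midbrain and the whole olfactory bulb (OB). Viable cells were sorted on eGFP fluorescence into wells and sequenced with Smart-Seq2, which copies whole polyadenylated transcripts.

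Of 473 cells, 396 passed the submitters' quality control. At E15.5 these were 84 FB and 88 MB cells, and at P7 they were 81 FB, 75 MB and 68 OB cells. Because each group was 1 pool of animals, cells are not replicates of a condition. No test was made, an SD is the spread over cells, and the exact (Clopper-Pearson) 95% interval of a share covers counting error only. Where no cell carried a gene, the share that this allows is given by another rule, as 3 cells of the total. On 2 of the 3 P7 plates the number of genes given in the labels did not follow the column of the same name (Pearson's r across wells of -0.03 and -0.05), and it did once the columns of these plates were exchanged well by well (0.999 on both). The values below rest on that exchange for 147 P7 cells. The 249 cells of the other plates are all those of E15.5 and, at P7, only 31 FB, 30 MB and 16 OB cells. Values by plate are given for some of the P7 results and not for all. The median number of genes in the labels was lowest in P7 OB, at 3290, and 4916 in P7 FB, 5554.5 in E15.5 FB, 6185 in P7 MB and 6227.5 in E15.5 MB. The read depth is unknown. Gapdh, which every cell is thought to use, was listed at exactly 0 in 22 of the 396 cells, while Actb, Eef1a1 and Tubb5 were at 0 in none, so that a peptide at 0 is called listed at 0 and not absent.

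The labelled regions were checked against marker lists. Of 14 hypothalamic markers, the 12 that reached a mean FPKM of 1 in E15.5 FB or MB were all at least 2-fold higher in FB, and so were the 9 that could be compared at P7. All 11 midbrain dopaminergic markers compared were lower in FB than in MB at both ages and lower in OB than in MB. All 10 olfactory bulb interneuron markers compared were higher in OB than in MB. Against MB these lists did not tell FB from OB. Bulb markers were also higher in FB, 7 of 10 at E15.5 and 8 of 9 at P7. Of 4 hypothalamic markers compared, 3 were higher in OB than in MB and 1 lower. In P7 FB against OB, 6 of 9 hypothalamic markers were higher and 1 lower, and of 10 bulb markers 0 were higher and 8 lower. At E15.5 few of the sorted cells carried Th itself, 27 of 84 in FB and 26 of 88 in MB, against 77 of 81, 74 of 75 and 67 of 68 in P7 FB, MB and OB. Of 10 glial and vessel markers, C1qa and Cx3cr1 were listed at 0 in every cell that passed, Gfap reached 1 in 3 P7 FB and 2 P7 MB cells, and Mbp reached 1 in 24 to 42 cells of each group except P7 OB, where it did in 11. Their part in the results was not tested.

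Each peptide was carried by a minority of the cells in nearly every group, Trh in P7 OB being the exception. Over the 396 cells, Trh was found in 84, Sst in 64, Npy in 59, Pomc in 41, Cartpt in 34, Crh in 19, Agrp in 6, Oxt in 5 and Avp in 3. A high level of at least 1 of the 9 was seen in 52 of 68 P7 OB cells (76.5%, 64.6 to 85.9), 26 of 84 E15.5 FB cells (30.95%, 21.3 to 41.98) and 15 of 81 P7 FB cells (18.5%, 10.75 to 28.7). In the midbrain it was seen in 7 of 88 cells at E15.5 (7.955%, 3.26 to 15.7) and 4 of 75 at P7 (5.33%, 1.47 to 13.1).

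**Figure D1:**
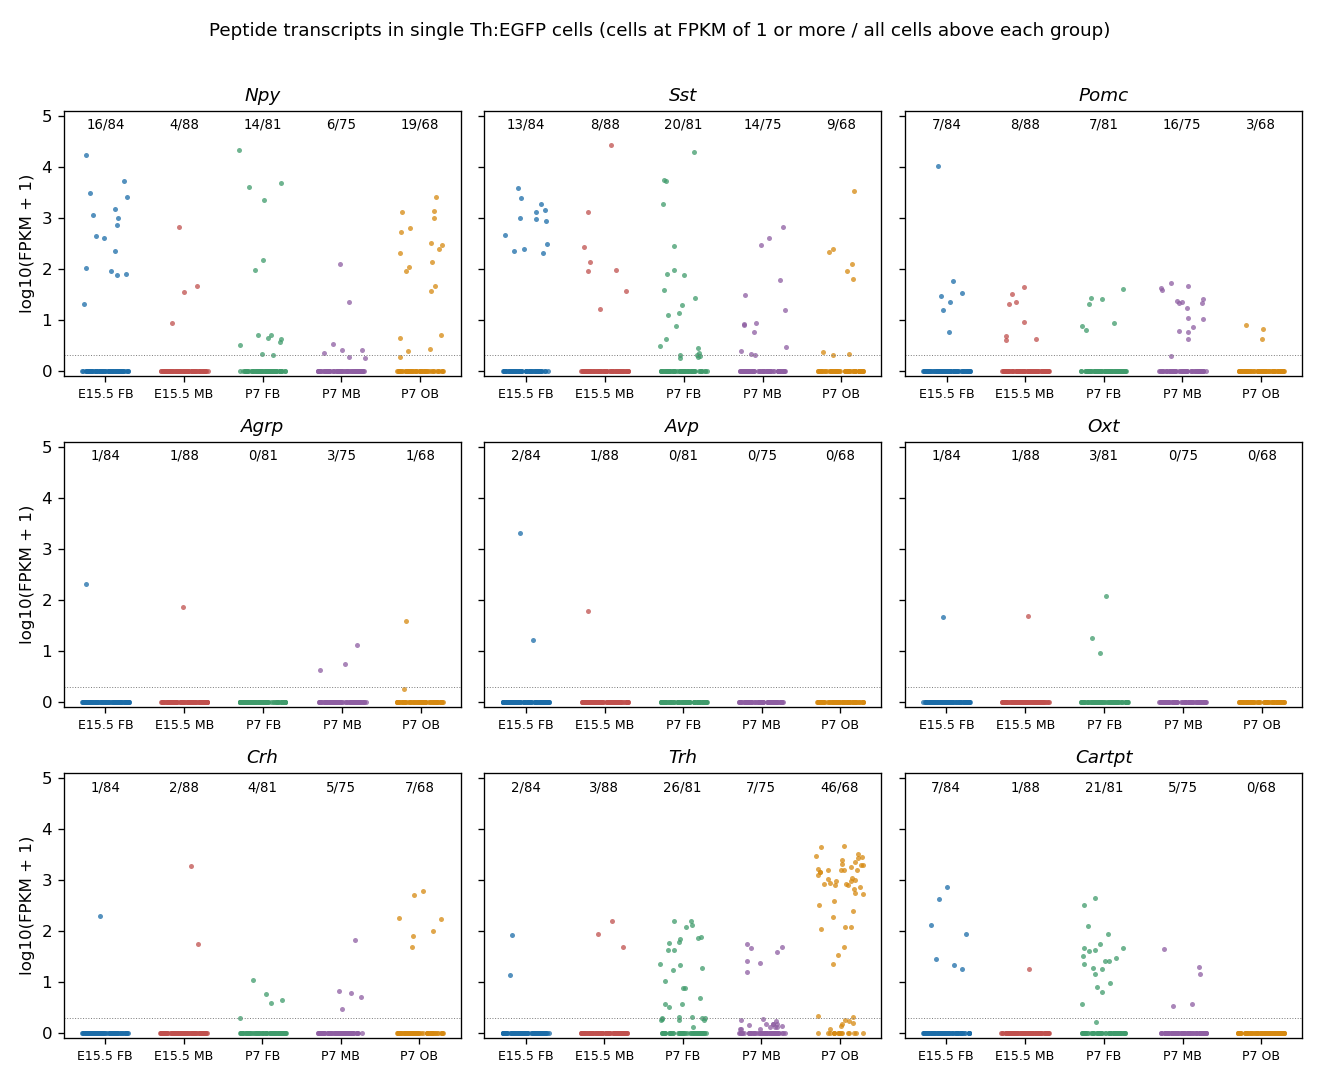
FPKM of the 9 peptide transcripts in each of 396 cells, as log10(FPKM + 1), by group; each point is 1 cell, the dotted line is an FPKM of 1, and the numbers above each group are cells at or above that line of all cells. Most cells lie at 0 for most peptides, and Trh in P7 OB (46 of 68) is the one case in which most cells carry the transcript.

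The spread over cells was so wide that 1 cell could make up most of a group's total. One E15.5 MB cell at 26820 held 93.2% of the Sst of its group, 1 E15.5 FB cell at 10260 held 98.5% of the Pomc, and 1 E15.5 FB cell at 2033 held 99.25% of the Avp. The contrast was Trh in P7 OB, where the highest cell held 7.87% of the total. Means are therefore read here together with the number of cells behind them.

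**Figure D2:**
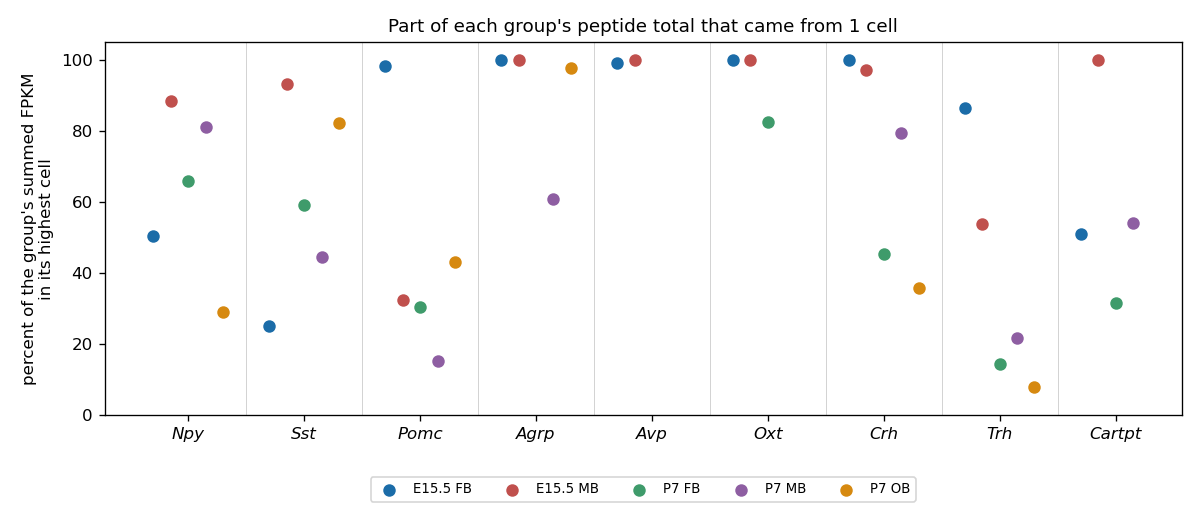
Percent of a group's summed FPKM that came from its highest cell, for each peptide and group with at least 1 cell at FPKM of 1 or more. Agrp, Avp, Oxt and Crh lie between 97.3% and 100% in both E15.5 groups, Pomc in E15.5 FB stands at 98.5%, and Trh in P7 OB at 7.87% is the lowest point.

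Trh encodes the precursor of thyrotropin-releasing hormone, and here it was above all a transcript of the olfactory bulb. In P7 OB it was found in 46 of 68 cells (67.6%, 55.2 to 78.5), was high in 41 and reached 1000 in 23. Its values there ran from 0 through a median of 460.3 to 4665, with a mean of 872 ± 1108 (SD over 68 cells). By plate it was found in 11 of 16 cells on the plate that needed no exchange and 19 of 27 and 16 of 25 on the exchanged ones.

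In the other groups Trh was scarcer and lower. In P7 FB 26 of 81 cells carried it, with a mean of 13.7 and a highest cell of 159, and 4 of them were high. In P7 MB 7 of 75 cells did, with a mean of 3.46. At E15.5 there were 2 FB cells, at 82.1 and 12.8, and 3 MB cells, at 157, 86.6 and 47.8. The mean in P7 OB was thus 196-fold that in P7 MB on the (mean + 1) scale, a log2 difference of 7.61, which was 7.77 without the highest cell of each group and between 7.71 and 8.39 on the 3 plates taken singly. Against P7 FB the OB mean was 59.4-fold higher. The log2 difference of the means of P7 FB over P7 MB was 1.72, but on the 3 plates it was 2.39, 2.03 and -0.23. The share of carrying cells was higher in FB on each plate. Trh was found in 8 of 29, 14 of 31 and 4 of 21 FB cells on the 3 plates and in 0 of 20, 5 of 30 and 2 of 25 MB cells.

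Within the bulb, Trh followed the clusters given in the labels. These were built from the expression of the same cells, so what follows is a description. Trh was found in 29 of 33 cells of P7.OB.2 and in 14 of 15 cells of P7.OB.3, with means of 979 and 1773, but in 3 of 20 cells of P7.OB.1, with a mean of 18.4. On the plate that needed no exchange it was found in 5 of 5, 6 of 6 and 0 of 5 cells of these clusters.

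The bulb cells with high Trh carried Slc6a3 more often, and Th at a higher mean, than those with Trh under 1. Slc6a3, the dopamine transporter, was found in 36 of the 41 cells with high Trh and in 2 of the 22 cells with Trh under 1. The mean of Th, the rate-limiting enzyme of dopamine synthesis, was 1411 in the former and 275 in the latter. Gad1, an enzyme of GABA synthesis, was found in all of both. The median number of genes in the labels was 3577 with high Trh and 3043.5 with Trh under 1, and its part in these counts was not tested.

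**Figure D3:**
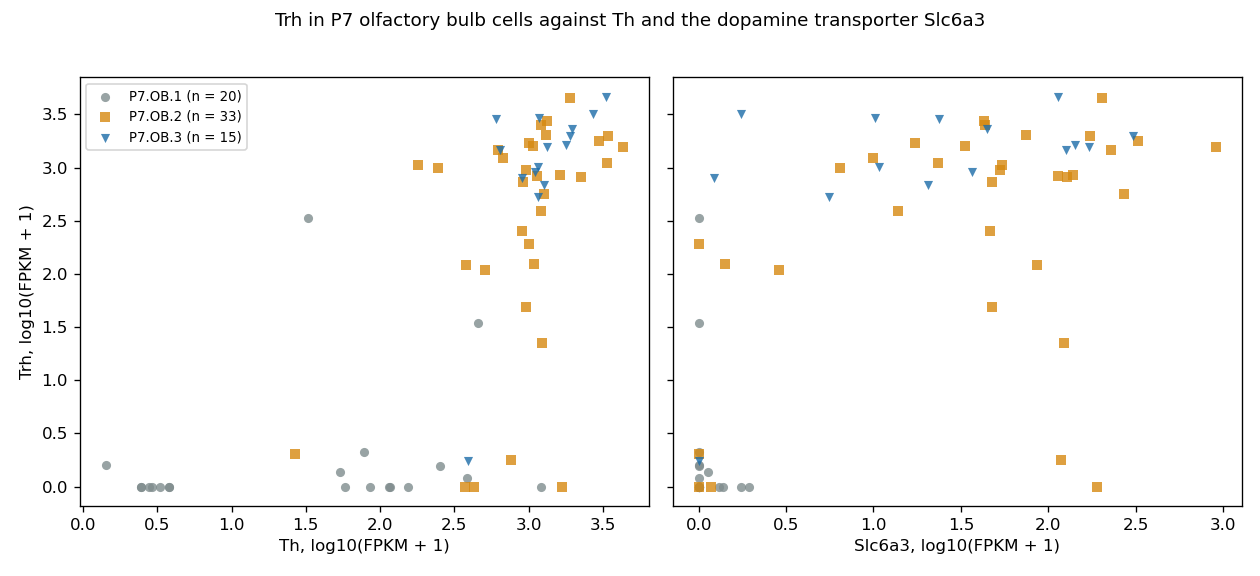
Trh against Th (left) and against Slc6a3 (right) in the 68 P7 OB cells, all as log10(FPKM + 1), coloured and shaped by the cluster in the labels. P7.OB.2 and P7.OB.3 cells gather at high Trh and high Th, with means of 979 and 1773 for Trh, and 17 of the 20 P7.OB.1 cells lie under an FPKM of 1 for Trh.

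The 3 genes whose log2(FPKM + 1) followed Trh most closely over the 68 bulb cells, out of 9223 compared, were Cpne7, with a Pearson's r of 0.81, Prss12, with 0.81, and Fibcd1, with 0.80. Cpne7 encodes a copine, a calcium-dependent membrane-binding protein, and Prss12 the secreted protease neurotrypsin. Cpne7 was found in 41 of the 46 cells with Trh, where its mean was 183, against 19.5 in the cells without. All 3 correlations were taken over cells of 1 pool on shared plates. For the other peptides found in at least 10 cells of a group the closest genes were less close. They were Grm3 (0.57), Lbhd2 (0.56) and Pax6 (0.56) for Sst in P7 FB, Shisa2 (0.58), Trhde (0.53) and Trappc6a (0.45) for Pomc in P7 MB, Gsx1 (0.56), Cfap126 (0.46) and Mtm1 (0.45) for Cartpt in P7 FB, and Lins1 (0.53), Ifrd1 (0.49) and Sparc (0.49) for Npy in P7 OB.

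The 250 bases before the RefSeq start of Trh, the gene found in the most cells, are set beside those of Npy. Of the 12 bulb cells with high Npy, 6 had high Trh, a share no larger than in the whole bulb (41 of 68). The windows are at chr6:92244651-92244900 (minus strand) and chr6:49822460-49822709 (plus strand) of GRCm38.p6, from RefSeq, printed in the direction of transcription. Capitals mark matches on either strand to TATAA, a core promoter motif, and to CANNTG, the E-box.
Trh: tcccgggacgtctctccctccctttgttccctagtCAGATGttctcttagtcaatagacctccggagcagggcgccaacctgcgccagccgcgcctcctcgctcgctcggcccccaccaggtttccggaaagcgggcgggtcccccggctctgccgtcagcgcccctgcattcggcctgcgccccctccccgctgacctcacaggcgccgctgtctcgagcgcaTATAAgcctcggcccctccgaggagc
Npy: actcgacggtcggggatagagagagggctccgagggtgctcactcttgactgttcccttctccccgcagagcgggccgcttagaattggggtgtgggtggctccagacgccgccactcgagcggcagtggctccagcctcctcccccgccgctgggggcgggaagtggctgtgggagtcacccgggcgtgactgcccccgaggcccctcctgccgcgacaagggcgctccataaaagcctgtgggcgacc
In Trh the TATAA begins 26 bases before the start and the E-box 215 bases before it, and the Npy window holds neither. TATAA is in 22.8% and CANNTG in 66.2% of the 32851 RefSeq windows of this length. These are matches of letters, and no binding was measured.

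Npy encodes neuropeptide Y. It was carried by 19 of 68 P7 OB cells (27.9%, 17.7 to 40.15), by 16 of 84 forebrain cells at E15.5 (19.0%, 11.3 to 29.1) and 14 of 81 at P7 (17.3%, 9.78 to 27.3), and by 4 of 88 and 6 of 75 midbrain cells at these ages. The 3 larger shares have overlapping intervals. The median over all cells was 0 in each group, and the highest cells were at 17000 in E15.5 FB, 21820 in P7 FB and 2552 in P7 OB, against 666 and 126 in the midbrain groups. At E15.5, 12 of the 16 carrying cells were high and none lay between 1 and 10, whereas at P7 5 of the 14 were high and 8 lay between 1 and 10. These fixed levels do not mean the same at both ages, since P7 FB was lower than E15.5 FB by a median of 1.72 on the log2 scale over all features.

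The mean of Npy was 402 in E15.5 FB, of which 50.3% lay in 1 cell, and 8.545 in E15.5 MB. The log2 difference was 5.40, and it was 6.68 without the highest cell of each group and 7.87 and 3.08 on the 2 plates. At P7 the FB mean was 409, the OB mean 130 and the MB mean 2.07. The OB difference over MB had the same direction on all 3 P7 plates, with log2 values of 3.66, 7.95 and 4.64. That of FB did not, because on 1 exchanged plate 0 of 21 FB cells carried Npy, against 8 of 29 and 6 of 31 on the others.

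Npy was concentrated in 1 cluster of the E15.5 forebrain and in 1 of the bulb. In E15.FB.2 it was found in 13 of 24 cells, 11 of them high, against 3 of 60 cells of E15.FB.1. In the bulb it was found in 10 of 15 cells of P7.OB.3, 6 of 20 of P7.OB.1 and 3 of 33 of P7.OB.2. The median number of genes in the labels was 4785, 2920 and 3227 in these clusters, and its part in the counts was not tested. Of the 12 bulb cells with high Npy, 6 also had high Trh, and all 6 were in P7.OB.3.

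Of the 12 E15.5 FB cells with high Npy, 4 carried Th, as did 20 of the 68 cells with Npy under 1. Gad2, another enzyme of GABA synthesis, was found in all 12 and in 55 of the 68. Isl1, a transcription factor of arcuate neurons, was found in all 12 and in 37 of the 68, with means of 1656 and 498. Slc17a6, the vesicular glutamate transporter, was under 1 in all 12 and found in 16 of the 68. In P7 FB all 5 cells with high Npy carried Th and Gad1, and 4 of them carried Gal, the galanin gene. Of the 67 P7 FB cells with Npy under 1, 64 carried Th, 62 Gad1 and 46 Gal.

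Agrp, which encodes agouti-related peptide and is the usual partner of Npy in arcuate neurons, reached 1 in 6 of 396 cells. These were 1 FB cell and 1 MB cell of E15.5, at 209 and 73.4, 3 MB cells of P7, at 12.1 or less, and 1 OB cell, at 38.04. No P7 FB cell reached 1, and 0 of 81 allows a share of up to 3.70%. None of the cells with high Npy had high Agrp. The E15.5 FB cell with Agrp had Sst at 205 and Npy at 0, and the P7 OB cell had Npy at 527 and Trh at 2302. The annotation of Agrp spans 70696 bases and overlaps other genes, Ripor1 and Ctcf among them, so its values are uncertain.

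Sst encodes somatostatin, which holds back growth hormone release. Its share was highest in P7 FB, at 20 of 81 cells (24.7%, 15.8 to 35.5), followed by P7 MB, with 14 of 75 (18.7%, 10.6 to 29.3), E15.5 FB, with 13 of 84 (15.5%, 8.51 to 25.01), P7 OB, with 9 of 68 (13.2%, 6.235 to 23.6), and E15.5 MB, with 8 of 88 (9.09%, 4.01 to 17.1). These intervals overlap. In E15.5 FB all 13 cells were high, from 205 to 3836, and in P7 FB 5 of the 20 were, on the lower scale of the P7 values.

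The means of Sst gave an order that single cells decided. At E15.5 the MB mean, 327, was above the FB mean, 181, a log2 difference of FB over MB of -0.85. Without the highest cell of each group it was 2.56, and on the 2 plates it was -1.56 and 3.50. At P7 the FB mean was 402, with 59.3% of it in a cell at 19280, the OB mean was 60.8 and the MB mean 20.0. FB was above MB on all 3 plates, with log2 values of 2.86, 5.71 and 0.20, and it was 3.77 higher without the highest cells. OB over MB was 1.56, but -0.03 without the highest cells, and it was below 0 on both exchanged plates.

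Sst, too, kept to some clusters. In E15.FB.2 it was found in 10 of 24 cells and in E15.FB.1 in 3 of 60. In P7.FB.2 it was found in 18 of 55 cells, 5 of them high, and in P7.FB.1 in 2 of 26, both near 1. In the midbrain it was found in 7 of 11 cells of P7.MB.2, which held all 3 high P7 MB cells, at 666, 402 and 293. These 3 cells carried Slc17a6, and Gad1 and Gad2 were under 1 in all of them. All 5 high cells of P7 FB and all 4 of P7 OB carried Gad1 and Gad2. The regions differed in the same way over all their cells, with Gad1 in 2 of 75 MB, 74 of 81 FB and 68 of 68 OB cells.

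Crh encodes corticotropin-releasing hormone, the peptide that starts the pituitary response to stress. It was found in 7 of 68 P7 OB cells (10.3%, 4.24 to 20.1), with 4 high cells at 609, 516, 181 and 172. In P7 MB 5 of 75 cells carried it and in P7 FB 4 of 81, the highest at 64.98 and 10.2. The E15.5 cells with Crh were 1 of FB, at 194.5, and 2 of MB, at 1942 and 54.1. All 7 bulb cells belonged to P7.OB.1 (7 of 20 cells), and in P7.OB.2 and P7.OB.3 Crh was found in 0 of 33 and 0 of 15 cells, which allow shares of up to 9.09% and 20%.

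The bulb cells with Crh were unlike those with Trh, and all of them lay in P7.OB.1, where Trh was scarce. Of the 7 cells with Crh, 1 carried Trh and 4 carried Sst. Slc6a3 was under 1 in all 7 and Gad1 was found in all of them. Of the 22 bulb cells with Trh under 1, Slc6a3 was found in 2 and Gad1 in 22, so that neither trait is particular to the cells with Crh. The mean of Crh in OB was above that in MB by 3.64 on the log2 scale, with 2.33, 4.59 and 3.29 on the 3 plates.

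Pomc encodes proopiomelanocortin, the precursor of melanocyte-stimulating hormone, corticotropin and beta-endorphin. One E15.5 FB cell in E15.FB.2 stood at 10260 and also carried Sst at 3836, with Th listed at 0. The other 6 E15.5 FB cells with Pomc lay between 4.65 and 56.8. The E15.5 FB mean was 124 with this cell and 1.90 without it, against 1.52 in E15.5 MB (1.04 without its highest cell).

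At P7 Pomc was low, and it was found in 16 of 75 midbrain cells (21.3%, 12.7 to 32.3), 7 of 81 in FB (8.64%, 3.545 to 17) and 3 of 68 in OB (4.41%, 0.92 to 12.4). The 16 values ran from 3.27 to 52.4, with a median of 20.4. On the 3 plates Pomc was found in 6 of 20, 7 of 30 and 3 of 25 MB cells and in 1 of 29, 5 of 31 and 1 of 21 FB cells. Of the 16, 12 belonged to P7.MB.1 (of 39 cells), 15 carried Th and 14 carried Slc6a3. Of the 59 MB cells with Pomc under 1, 59 carried Th and 50 Slc6a3, so that neither trait is particular to the cells with Pomc. The median number of genes in the labels was 6071 in the 16 and 6185 in the other MB cells.

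Cartpt encodes the cocaine- and amphetamine-regulated transcript peptides. In the forebrain 21 of 81 cells carried it at P7 (25.9%, 16.8 to 36.9) and 7 of 84 at E15.5 (8.33%, 3.42 to 16.4), and in the midbrain 5 of 75 and 1 of 88. In P7 OB it was listed at 0 in all 68 cells, which allows a share of up to 4.41%. The levels were moderate, with a highest cell of 446 in P7 FB and 734 in E15.5 FB and means of 17.4 and 17.1. P7 FB was above P7 MB by 3.13 on the log2 scale, in the same direction on all 3 plates (4.11, 1.60 and 4.14).

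In P7.FB.1 Cartpt was found in 13 of 26 cells, against 8 of 55 cells of P7.FB.2, and the share was higher in P7.FB.1 on each plate. Ghrh, which encodes growth hormone-releasing hormone, was found in 17 of the 21 P7 FB cells with Cartpt and in 25 of the 60 without. Gal was found in 20 of the 21 and in 36 of the 60. At E15.5 all 7 cells belonged to E15.FB.1, and 1 of them carried Th.

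The windows before the starts of Sst and Cartpt share a motif that few promoters hold. TGACGTCA, the full cyclic AMP response element, was matched on either strand in 1.55% of the 32851 RefSeq windows, and of the 7 peptides with a RefSeq window (all but Agrp and Crh) these 2 held it. It begins 48 bases before the start of Sst (chr16:23890875-23890902, minus strand) and 112 bases before that of Cartpt (chr13:99900778-99900805, minus strand), and it is in capitals below. Both stretches lie inside the GENCODE spans of these genes, whose starts are farther upstream than those of RefSeq.
Sst: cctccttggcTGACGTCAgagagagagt
Cartpt: cggcgggcatTGACGTCAaacggcagcg
In the cells Sst and Cartpt were found together once among the 20 and 21 P7 FB cells that carried them. No factor was measured at these bases.

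Avp and Oxt, which encode the vasopressin and oxytocin precursors, were the rarest. Avp was found in 3 cells, 2 of E15.5 FB at 2033 and 15.4 and 1 of E15.5 MB at 58.9, and it was listed at 0 in all P7 cells, which allows shares of up to 3.70% in FB, 4.0% in MB and 4.41% in OB. Oxt was found in 5 cells, 3 of P7 FB at 119, 16.9 and 8.23 and 1 each of FB and MB at E15.5, at 45.3 and 47.3. In P7 MB and OB it was listed at 0. The cell with Avp at 2033 had Gal at 2600 and Slc17a6, and Th and Gad1 were listed at 0 in it. No cell carried both.

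The values of Avp and Oxt are uncertain because the genes are neighbours with near-identical parts. The longest run that the 2 GENCODE M21 transcripts share is 127 bases long, lies wholly in the coding sequence and crosses the junction of the first 2 of 3 exons. In the genome it falls between chr2:130581133-130582411 (Avp, minus strand) and chr2:130576328-130576715 (Oxt, plus strand) of GRCm38, an intron included.
Avp and Oxt: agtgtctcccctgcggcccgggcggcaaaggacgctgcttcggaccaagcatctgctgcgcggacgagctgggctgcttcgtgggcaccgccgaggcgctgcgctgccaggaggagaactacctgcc
Of the 513 windows of 25 bases in the Oxt transcript, 103 (20.1%) also occur in Avp, and these are 18.6% of the 553 windows of Avp. A read that lies wholly within the shared run matches both genes. In the cell with Avp at 2033 Oxt was listed at 0.

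**Figure D4:**
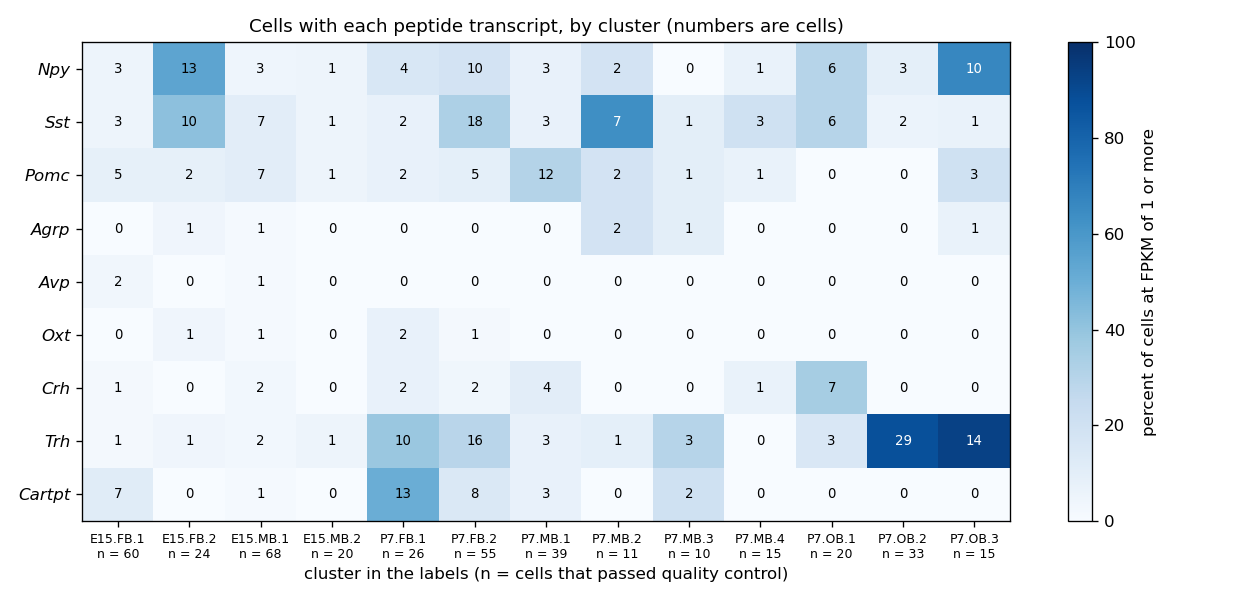
Cells at FPKM of 1 or more for each peptide (rows) in each of 13 clusters of the labels (columns); numbers are cells and the colour is their percent of the cluster. The darkest squares are Trh in P7.OB.3 (14 of 15) and P7.OB.2 (29 of 33), Npy in P7.OB.3 (10 of 15) and Sst in P7.MB.2 (7 of 11).

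Cells seldom carried several peptides at a high level. Of the 104 cells with at least 1 at 100 or more, 86 had 1, and 18 had 2 together. Npy with Trh made up 6 of these pairs, all in P7 OB, and Npy with Sst 5, 3 of them in E15.5 FB and 2 in P7 FB. High Trh was common in P7 OB, in 41 of 68 cells. The P7 FB cell with the highest Npy, at 21820, was also the one with the highest Sst, at 19280. Sst with Crh was seen in 2 bulb cells, and Sst with Pomc, Sst with Agrp, Sst with Trh, Npy with Cartpt and Trh with Cartpt in 1 cell each. All 3 P7 FB cells with high Cartpt and all 4 with high Trh carried Ghrh, 1 cell being in both sets. Ghrh was found in 42 of all 81 P7 FB cells. It stood at 11.2 in a cell with high Cartpt and 16.9 in a cell with high Trh, and at 1306 or more in the rest.

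**Figure D5:**
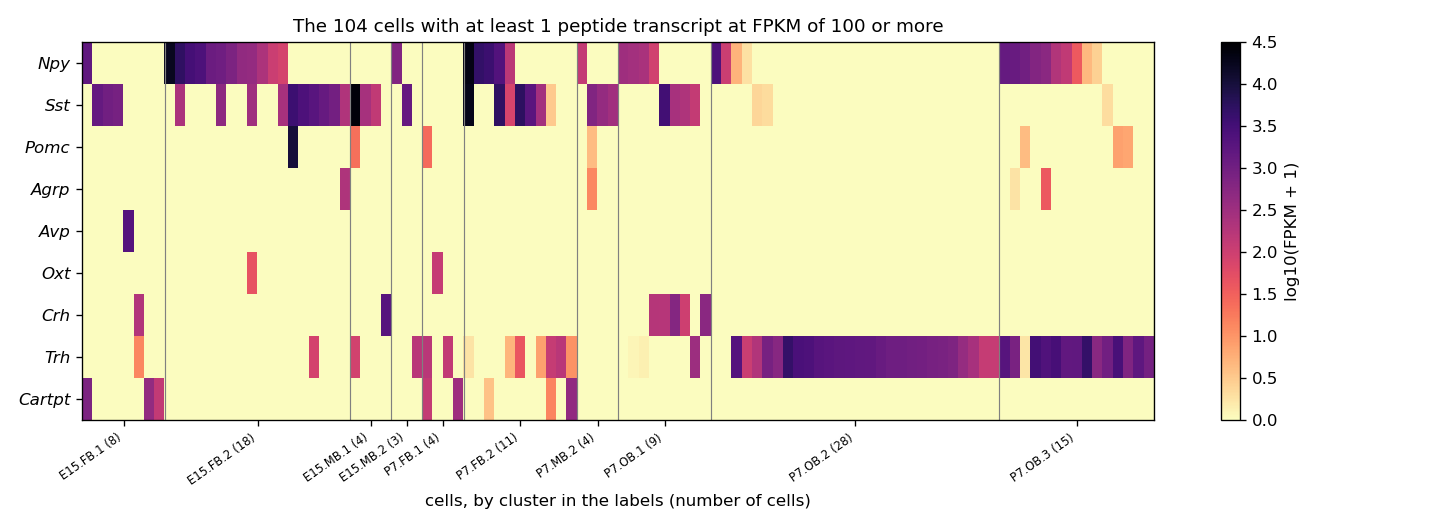
FPKM of the 9 peptides, as log10(FPKM + 1), in the 104 cells with at least 1 of them at 100 or more; each column is 1 cell, ordered by the cluster in the labels. Npy and Sst fill most columns of E15.FB.2 (18 cells), and Trh fills nearly all columns of P7.OB.2 (28 cells) and P7.OB.3 (15 cells). Crh, Sst and Npy each appear in several columns of P7.OB.1.

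Counted over the 9 peptides, the differences between groups ran as follows, with differences of at least 2-fold on the (mean + 1) scale for genes whose mean FPKM reached 1 on either side. A gene listed at 0 on 1 side enters these counts through the added 1 and has no fold of its own. In E15.5 FB against MB, 4 of 8 were higher (Npy, Pomc, Avp and Cartpt), where 9.41% of all 14405 features were, and 2 were lower (Crh and Trh), where 8.46% were. Without the highest cell of each gene in each group, Npy, Sst and Cartpt were higher and Trh lower. The median log2 difference was 2.42, against 0.12 over all features, and single cells weigh on it. Without the highest cells the differences were 6.68 (Npy), 3.24 (Cartpt), 2.56 (Sst), 0.51 (Pomc), 0.25 (Avp), -0.0 (Agrp), -0.70 (Crh) and -1.14 (Trh). No median was taken of these.

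In P7 FB against MB, 5 of 7 were higher (Npy, Sst, Oxt, Trh and Cartpt), where 6.65% of all features were, and Pomc was lower, where 5.44% were. Without the highest cells Oxt was no longer past 2-fold. In P7 OB against MB, 4 of 6 were higher (Npy, Sst, Crh and Trh), where 11.4% were, and Pomc and Cartpt were lower, where 21.7% were. Without the highest cells Sst and Cartpt were no longer past 2-fold. Both comparisons share the P7 MB cells. In P7 FB against OB, 5 of 7 were higher (Npy, Sst, Pomc, Oxt and Cartpt), where 21.8% of all features were, and Crh and Trh were lower, where 9.41% were. Of the 5, Sst and Cartpt were still past 2-fold without the highest cells.

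Between the forebrain ages the scale of the table itself differed. Over all features P7 FB was lower than E15.5 FB by a median of 1.72 on the log2 scale, 77.1% were at least 2-fold lower and 2.93% at least 2-fold higher. When each cell was rescaled to the same total, the median was -0.37, 24.2% were lower and 11.3% were higher. Of the 9 peptides, Sst and Trh were higher and Pomc, Agrp, Avp and Crh lower, and without the highest cells Trh alone was past 2-fold, at 3.48. Npy and Cartpt differed by 0.02 and 0.03, above the median of all features, and without the 2 exchanged plates Cartpt stood at -0.93. After rescaling 5 of the 9 were higher. Age goes with a longer dissociation and a density gradient at P7 and with other plates, and these cannot be told apart.

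The other genes of the peptide system were counted from fixed lists. The counts are to be read against all features, of which 9.41% were higher and 8.46% lower in E15.5 FB against MB, 6.65% and 5.44% in P7 FB against MB, 11.4% and 21.7% in P7 OB against MB, 21.8% and 9.41% in P7 FB against OB, and 2.93% and 77.1% in P7 against E15.5 FB. Of 28 other peptide genes, 7 were at least 2-fold higher and 5 lower of 15 compared in E15.5 FB against MB, 6 and 5 of 16 in P7 FB against MB, 1 and 10 of 16 in P7 OB against MB, 10 and 1 of 15 in P7 FB against OB, and 6 and 5 of 16 in P7 against E15.5 FB. Those with the highest means were Ghrh at 1545 in P7 FB (42 of 81 cells), Vip at 775 in P7 MB (29 of 75), Cck at 548 in P7 MB (61 of 75), Gal at 548 in P7 FB (56 of 81) and Tac1 at 109 in P7 FB (20 of 81). In the bulb, where Trh was highest, the median log2 difference of these other peptides from the midbrain was -1.32, against -0.27 over all features.

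The machinery of peptide processing was found broadly. Of 20 genes for processing enzymes and granule proteins, 2 were higher and 1 lower of 20 compared in E15.5 FB against MB, 0 and 2 of 19 in P7 FB against MB, 1 and 5 of 19 in P7 OB against MB, 4 and 2 of 19 in P7 FB against OB, and 1 and 8 of 20 between the ages. The 5 of 19 lower in the bulb are near the share of all features, and the 8 of 20 lower at P7 are below it. Cpe, which trims the cut peptides, was found in 83 of 84, 88 of 88, 81 of 81, 75 of 75 and 67 of 68 cells of the groups in the order E15.5 FB, E15.5 MB, P7 FB, P7 MB and P7 OB, with means of 1287, 953, 402, 439 and 292. Scg5, a chaperone of the convertase Pcsk2, had its highest mean at 719 in E15.5 MB, the granins Scg2 and Chga theirs at 524 in P7 MB and 246 in E15.5 MB, and Pcsk1n its highest at 294 in E15.5 MB. Chga was found in 31 of 68 P7 OB cells, against 61 of 84 to 75 of 75 in the other groups. The bulb also had the lowest number of genes in the labels, whose part was not tested.

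Of 25 receptor and binding-protein genes, 4 were higher and 2 lower of 15 compared in E15.5 FB against MB, 6 and 3 of 18 in P7 FB against MB, 2 and 8 of 15 in P7 OB against MB, 11 and 2 of 16 in P7 FB against OB, and 7 and 2 of 18 between the ages. Insr, the insulin receptor, had its highest mean at 42.99 in E15.5 FB. The somatostatin receptors Sstr2 and Sstr1 followed at 27.03 and 23.6 in the same group. Crhr1, the receptor of Crh, was found in 36 of 68 P7 OB cells with a mean of 21.8. In P7 MB 19 of 75 cells carried it, with a mean of 4.23, and in P7 FB 5 of 81, with a mean of 2.003. Crhbp, which binds Crh, had its highest mean at 17.1 in P7 OB, in 6 cells.

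Of 16 transcription factors known from peptide neurons of the hypothalamus, 7 were higher and 4 lower of 13 compared in E15.5 FB against MB, 5 and 1 of 8 in P7 FB against MB, 3 and 2 of 6 in P7 OB against MB, 5 and 0 of 7 in P7 FB against OB, and 0 and 9 of 11 between the ages, the last near the share of all features. Isl1 had a mean of 658 in E15.5 FB (53 of 84 cells) and 53.8 in P7 FB (57 of 81), and was listed at 0 in every P7 MB cell. Arnt2, Lhx6 and Nkx2-1 had their highest means in E15.5 FB, at 64.1, 41.7 and 29.8. Otp and Sim1, known from the paraventricular neurons that make Avp, Oxt, Crh and Trh, were found in 8 and 6 of 84 E15.5 FB cells. In P7 FB, Otp was found in 5 of 81 cells and Sim1 was listed at 0 in all of them.

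The 9 genes lie, in GRCm38 coordinates of GENCODE M21, at chr6:49822710-49829507 (Npy), chr16:23889573-23890958 (Sst), chr12:3954951-3960642 (Pomc), chr8:105566698-105637393 (Agrp), chr2:130580620-130582554 (Avp), chr2:130576173-130577054 (Oxt), chr3:19693401-19695396 (Crh), chr6:92242061-92244650 (Trh) and chr13:99898489-99901091 (Cartpt). Npy, Pomc and Oxt are on the plus strand and the others on the minus strand. Values are per gene, and isoforms were not told apart.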

How the data were processed

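The deposited table gives FPKM for 28952 features in 473 single cells. The authors used HISAT2 and Cuffnorm on mm10, per the submitters' processing notes; versions and annotation release are not given in the sources used here. How the authors scaled each cell is not known, and the summed FPKM of passed cells ran from 148100 to 4080000. Symbols came from a reference table of gene identifiers (28636 features matched). Group, quality verdict, plate, gene number and cluster came from the labels. Columns of 2 P7 plates were exchanged well by well, by plate name, before use.

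Means over cells were compared as log2((mean + 1)/(mean + 1)) for all features with a mean of 1 or more in either group, which understates differences of low genes. Files hold no counts and each group is 1 pool, so nothing was tested. The members and lists were chosen with earlier results of these data known. All 9 members were named; for each member in at least 10 cells of its group with the most carrying cells, also the 3 genes with the highest Pearson's r among those at FPKM of 1 or more in at least 10% of these cells; and from each list the 5 highest means, of which 1 gene is not reported here. Ghrh, Gal and Isl1 in carrying cells, and Otp and Sim1, were named beyond this rule after their values were seen. Of the 16 transcription factors 5 are also hypothalamic markers. Alternatives were another pseudocount, 4-fold, other detection levels, single plates, columns by name, rescaled cells, mean logs, failed cells included and the highest cell left out. Wells were filled by sorting and no doublet caller was run; no 2 cells had identical values. The calculation was tested on simulated data. Python 3.11.15 was used with numpy 2.4.6, pandas 2.3.3, scipy 1.17.1 and matplotlib 3.10.9. No amino acid sequence is shown.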

Additional observations from a re-analysis of the deposited data

Results flagged for a closer look

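The mean of Pomc differed between FB and MB in opposite directions at the 2 ages. The log2 difference of FB over MB was 5.64 at E15.5 and -1.10 at P7. Its sign was the same on both E15.5 plates (6.00 and 1.47), and on all 3 P7 plates (-2.11, -0.70 and -1.27). The difference between the ages was not tested. At E15.5 the log2 difference was 0.51 without the highest cell of each group. Pomc was carried there by 7 of 84 FB and 8 of 88 MB cells, so the number of carrying cells did not differ in the way the means did.

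Cells that failed the submitters' quality control, which enter no comparison, also carried peptides. Trh was found in 13 of 27 failed P7 OB cells and Npy in 7 of 27, and Pomc in 4 of 20 failed P7 MB cells. The highest failed P7 OB cell stood at 12780 for Npy, above the 2552 of the highest P7 OB cell that passed.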

How the results depend on the processing

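Without the 2 exchanged plates, and with failed cells included, all 10 counts of members past 2-fold stayed within 1.5 times the reported ones. No E15.5 cell lay on the exchanged plates. The counts of E15.5 FB against MB therefore could not change without these plates or with columns by name. At 4-fold, 1 was lower in E15.5 FB against MB, 3 were higher and 0 lower in P7 FB against MB, 1 was lower in P7 OB against MB, 2 were higher in P7 FB against OB, and 1 was higher and 2 lower in P7 against E15.5 FB. With columns by name and no exchange, 0 were lower in P7 FB against MB, 1 in P7 OB against MB, 3 higher and 1 lower in P7 FB against OB, and 1 higher between the ages. Cartpt then turned to -0.94 in P7 FB against MB and -0.88 in P7 FB against OB, and Crh to 0.65 between the ages. Trh kept its sign but went from 7.61 to 1.48 in P7 OB against MB and from -5.89 to -0.16 in P7 FB against OB. On the P7 plate that needed no exchange these 2 differences of Trh were 7.71 and -5.68. Without the highest cells, 1 was lower in E15.5 FB against MB, 1 lower in P7 OB against MB, 2 higher in P7 FB against OB, and 1 higher and 0 lower between the ages, with Sst at -0.0337 in P7 OB against MB and Crh at 0.21 between the ages. With cells rescaled, 1 was lower in E15.5 FB against MB and 5 were higher between the ages. A pseudocount of 0.1 gave 2 lower in P7 FB against MB.

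From the mean of log2(FPKM + 1), counts higher and lower were 1 and 0 in E15.5 FB against MB, 1 and 0 in P7 FB against MB, 2 and 0 in P7 OB against MB, 1 and 1 in P7 FB against OB, and 1 and 0 between the ages. Sst then stood at -0.0329 in P7 OB against MB and -0.0973 between the ages, Npy at -0.97 in P7 FB against OB and Crh at 0.0473 between the ages. With failed cells, Npy in P7 FB against OB was -0.20. The cause was not tested for any of these, except that leaving out cells uses fewer of them. No difference past 2-fold changed sign without the 2 exchanged plates, with a pseudocount of 0.1 or with cells rescaled. Of 45 shares of cells, 42 without the 2 exchanged plates, 44 with found set at 0.1 and 38 with it set at 10 stayed within the interval of the reported share, while 9 moved out of it with columns by name and 26 with found set at 100. The shares of both E15.5 groups, and the differences between these groups, could not move without the exchanged plates or with columns by name.

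No paired analysis was possible because replicate numbers only name cells and no test was made. Differences within each plate are given in the report as values. Each group is 1 pool of animals, so that the spread between animals is not known. Without counts, sampling error within a cell cannot be given, and peptides carried by fewer than 10 cells in a group rest on those cells.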
